A study of Homo sapiens with 9 samples.

Results

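The AP-1 transcription factor family was described at the mRNA level in Jurkat Clone E6-1, a T-cell line that was established from a human leukaemia, as 10 genes out of the 19569 in the count table: FOS, FOSB, FOSL1 and FOSL2 (the FOS class), JUN, JUNB and JUND (the JUN class), ATF3, BATF and BATF3. The members were chosen by name, and each matched 1 row of the table by symbol and Ensembl identifier. There were 9 mRNA-seq libraries in 3 groups of 3: non-activated cells (0 h), cells activated for 5 h and cells activated for 12 h. No other time is among these libraries, so a higher or lower level between these times would be missed. Cells were activated on a coat of anti-CD3 antibody (10 µg/mL), which engages the T-cell receptor complex, with soluble anti-CD28 antibody (5 µg/mL), which engages the costimulatory receptor. All cells were the same line, with no genetic change or other treatment named. The libraries include no unstimulated culture of the 5 h or 12 h time points. Activation and the hours spent in culture cannot be told apart in any comparison with 0 h.

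AP-1 is a set of dimers of basic leucine zipper proteins that bind short palindromic DNA sites. JUN proteins pair with themselves, with FOS proteins or with ATF and BATF proteins, while FOS proteins need a partner. In T cells the T-cell receptor and CD28 reach AP-1 through MAP kinases, which drive transcription of FOS and JUN genes and phosphorylate their products, and AP-1 binds beside NFAT at cytokine genes such as IL2. BATF and BATF3 lack the activation domains of FOS and act with JUN proteins and IRF4 or IRF8. Protein levels and phosphorylation, which set much of AP-1 activity, were not measured in these libraries.

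Library totals ran from 4222258 to 9359187 counts, with 12 h replicate 1 the shallowest. The 9 T-cell and Jurkat markers, CD3D, CD3E, LCK and TAL1 among them, all had counts in every group and summed to 6680 to 7550 CPM at 0 h, 7330 to 8040 at 5 h and 7100 to 8170 at 12 h, where CPM is the count per 1e6 counts of TMM-scaled library size. Single markers among these 9 moved in both directions. At 0, 5 and 12 h CD3G averaged 744, 356 and 337 CPM, and PTPRC averaged 1520, 2530 and 2590 CPM. The 3 B-cell markers summed to 162 to 203, 89.6 to 119 and 130 to 155 CPM at 0, 5 and 12 h. Nearly all of that was CD79A. The defining marker MS4A1 averaged at most 0.0924 CPM in any group. The summed myeloid, erythroid, fibroblast and epithelial markers stayed at or under 4.89 CPM in every library. The study's design text calls the replicates biological. It does not state that each came from a culture of its own, and the p-values rest on the spread among the 3 libraries of a group as deposited.

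Most AP-1 genes were higher at 5 h than at 0 h, and FOS, FOSL2 and the JUN class were lower again at 12 h than at 5 h. Of the 10 members, 9 passed the filter on low counts and FOSL1 did not. At 5 h against 0 h, 8 of the 9 were higher (FOS, FOSB, FOSL2, JUN, JUNB, JUND, ATF3 and BATF3), 0 were lower and BATF did not pass the test. The background was high: 49.7% of the 12036 genes tested were called in that comparison, with 24.9% of all genes tested higher and 24.8% lower. A gain of 2-fold or more was found for 5 of the 9 members and for 5.51% of all genes. A higher level per cell and a larger share of cells that express a gene cannot be told apart in bulk RNA. The median log2 fold change was 1.46 over the 9 members and 0.00 over all genes. At 12 h against 0 h, 4 of the 9 were higher (FOS, JUNB, JUND and BATF3), 1 was lower (FOSL2) and 4 did not pass, where 51.1% of all genes were called, 26.3% higher and 24.8% lower. Gains of at least 2-fold were seen in 2 of the 9 (FOS and JUNB) and in 5.83% of all genes. In the comparison of 12 h with 5 h, 0 of the 9 were higher and 5 were lower (FOS, FOSL2, JUN, JUNB and JUND), where 36.1% of all genes were called, 18.1% higher, 2.08% by at least 2-fold, and 18% lower. A call is an edgeR quasi-likelihood test with a Benjamini-Hochberg adjusted p under 0.05 over all genes tested. The 3 comparisons share their libraries in pairs and are not independent.

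**Figure D1:**
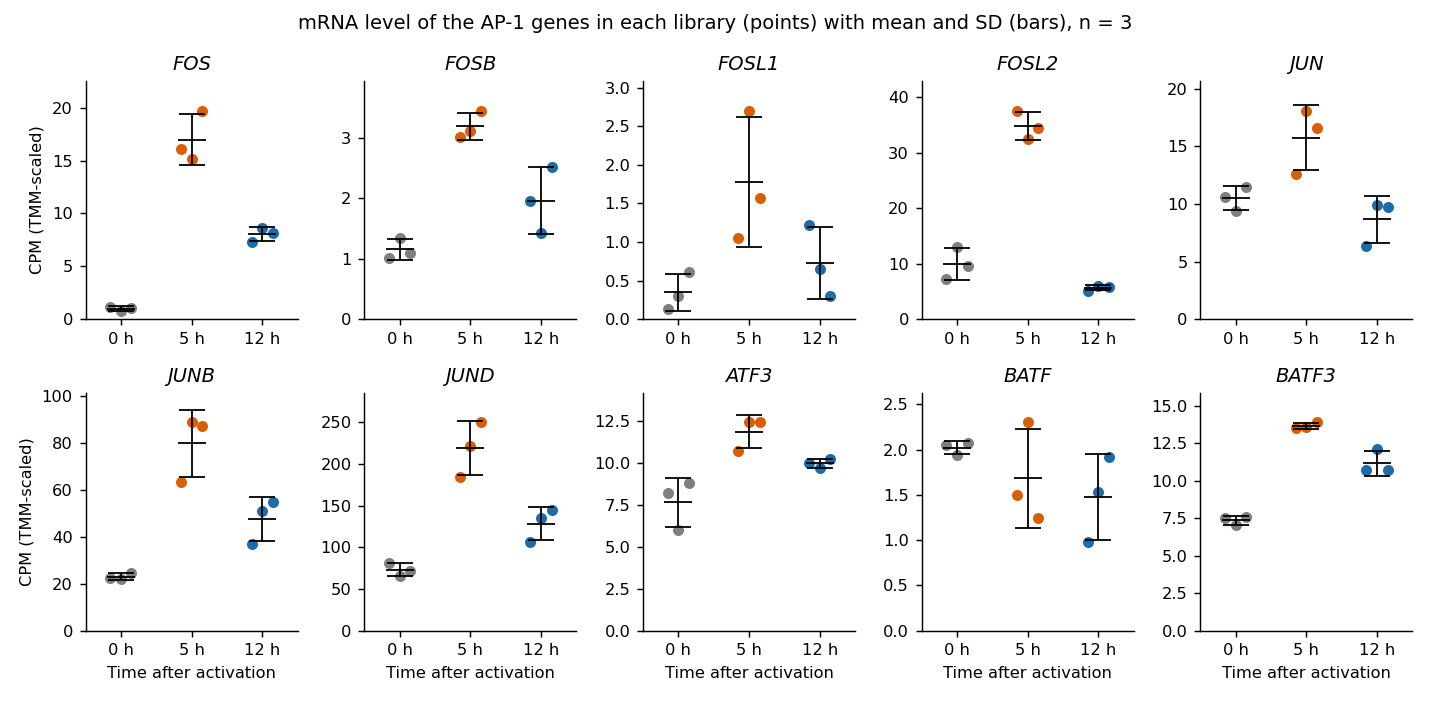
Each panel plots the level of 1 AP-1 gene in CPM (y axis, from 0, a scale of its own per panel) in the 9 libraries against time after activation (0, 5 and 12 h). Points are libraries, the long bar is the mean and the whiskers are the SD (n = 3). Of the times sampled, FOSL2 was highest at 5 h, and it lay under its 0 h level at 12 h. FOS stayed above 0 h at 12 h, and the BATF points of 0 h and 5 h overlapped.

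FOS, the founding member of its class and an immediate-early gene, had the largest change of the family. Its level was 1.15, 0.747 and 1.10 CPM for the 0 h libraries, 16.1, 15.1 and 19.7 CPM at 5 h, and 7.32, 8.61 and 8.14 CPM at 12 h. No library of 1 group reached the range of another. The 0 h levels rest on 9, 5 and 9 counts. The gain at 5 h against 0 h was 16.5-fold (log2 fold change 4.04, SE 0.25, n = 3, edgeR adjusted p = 2.42e-11), the 84th highest of 12036 genes. The gain at 12 h over 0 h was 7.91-fold (log2 2.98 ± 0.27, edgeR adjusted p = 1.59e-08), and 12 h lay below 5 h by log2 -1.06 ± 0.18 (edgeR adjusted p = 1.38e-04). FOS lies on chromosome 14, 75278774 to 75282230, plus strand (GENCODE 29, GRCh38).

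FOSB, a FOS paralogue, was low throughout. Its levels were 1.02, 1.35 and 1.10 CPM at 0 h, 3.01, 3.11 and 3.45 CPM at 5 h, and 1.95, 1.42 and 2.52 CPM at 12 h. The 3 groups did not overlap. It was 2.75-fold higher at 5 h than at 0 h (log2 1.46 ± 0.36, edgeR adjusted p = 0.00211). Its log2 difference was 0.74 at 12 h against 0 h (95% interval -0.08 to 1.55, edgeR adjusted p = 0.123), and at 12 h against 5 h it was -0.72 (-1.43 to -0.01, edgeR adjusted p = 0.104).

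FOSL1, which encodes FRA-1, had too few counts for the main test, with 1, 2 and 5 counts at 0 h, 7, 20 and 10 counts at 5 h, and 5, 6 and 2 counts at 12 h. These are 0.128 to 0.610 CPM at 0 h, 1.05 to 2.70 CPM at 5 h and 0.296 to 1.22 CPM at 12 h. The lowest 5 h library stood above the highest 0 h library, while the 12 h range overlapped both others. Without the filter on low counts the edgeR test gave log2 2.29 ± 0.66 at 5 h against 0 h (adjusted p = 0.00201), 0.88 ± 0.77 at 12 h against 0 h (adjusted p = 0.398) and -1.41 ± 0.61 at 12 h against 5 h (adjusted p = 0.0725). With the filter kept, FOSL1 also entered the test when some single libraries were left out, and its call at 12 h against 5 h hung on the library. It passed without 5 h replicate 1 (log2 -1.69, edgeR adjusted p = 0.0365) and without 12 h replicate 1 (log2 -1.82, edgeR adjusted p = 0.0306), and not without any of the other libraries whose omission let it in (edgeR adjusted p = 0.0517 to 0.193).

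FOSL2, which encodes FRA-2, was the 1 member called above its 0 h level at 5 h and below it at 12 h. It measured 7.16, 13 and 9.64 CPM at 0 h, 37.6, 32.6 and 34.5 CPM at 5 h, and 5.12, 6.00 and 5.77 CPM at 12 h. All 3 libraries at 12 h were below all 3 at 0 h, and all 3 at 5 h were above both. FOSL2 was 3.54-fold higher at 5 h than at 0 h (log2 1.82 ± 0.17, edgeR adjusted p = 1.23e-08). By 12 h it was lower than at 0 h (log2 -0.78 ± 0.21, edgeR adjusted p = 0.00356). Between 12 h and 5 h it had the 23rd most negative log2 fold change of 12036 genes, -2.60 ± 0.18 (edgeR adjusted p = 1.71e-09), which was more negative than that of any other member tested.

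JUN, which gives its class its name and is the substrate of the JNK kinases, had the smallest gain of its class at 5 h against 0 h. Its levels were 10.6, 9.42 and 11.5 CPM at 0 h, 12.6, 18.1 and 16.6 CPM at 5 h, and 6.34, 9.92 and 9.77 CPM at 12 h. The 5 h range stood apart from the other ranges, and those of 12 h and 0 h overlapped. JUN was 1.5-fold higher at 5 h than at 0 h (log2 0.59 ± 0.18, edgeR adjusted p = 0.0105), a call that was lost without 5 h replicate 2 (log2 0.46, adjusted p = 0.0694). The log2 difference of JUN at 12 h against 0 h was -0.23 (95% interval -0.64 to 0.17, edgeR adjusted p = 0.333), and at 12 h against 5 h it was -0.82 ± 0.19 (edgeR adjusted p = 0.00211).

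JUNB, a weaker activator than JUN with its own targets in T cells, measured 22.5, 22.1 and 24.8 CPM at 0 h, 63.6, 88.8 and 87.1 CPM at 5 h, and 37.1, 51.1 and 54.9 CPM at 12 h. JUND, a broadly expressed member of the class, measured 81.6, 66.2 and 71.2 CPM at 0 h, 185, 222 and 250.0 CPM at 5 h, and 106, 135 and 145 CPM at 12 h. For both genes the 5 h libraries were highest, the 12 h libraries lay between, and no groups overlapped. In JUN, JUNB and JUND alike, replicate 1 was the lowest of its group at 5 h and at 12 h. JUNB was 3.45-fold higher at 5 h than at 0 h (log2 1.79 ± 0.14, edgeR adjusted p = 2.21e-09) and 2.09-fold higher at 12 h than at 0 h (log2 1.06 ± 0.15, edgeR adjusted p = 5.49e-06). JUND was 3.00-fold higher at 5 h than at 0 h (log2 1.58 ± 0.12, edgeR adjusted p = 1.04e-09) and 1.77-fold higher at 12 h than at 0 h (log2 0.82 ± 0.12, edgeR adjusted p = 1.24e-05). Between 12 h and 5 h, JUNB was lower by log2 -0.72 ± 0.14 (edgeR adjusted p = 3.77e-04) and JUND by -0.76 ± 0.12 (edgeR adjusted p = 5.60e-05).

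JUNB was the only member with exons that overlap another gene in GENCODE 29. It shares 259 bases with HOOK2, a protein-coding gene on the opposite strand, and the strand setting of the counting is not given in the sources used here. HOOK2 averaged 6.70 ± 0.75 CPM at 0 h, 3.82 ± 1.23 CPM at 5 h and 6.53 ± 0.25 CPM at 12 h (SD, n = 3). It was lower at 5 h than at 0 h (log2 -0.80 ± 0.25, edgeR adjusted p = 0.0115), the opposite direction to JUNB, and its mean was below that of JUNB in every group.

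ATF3, a stress-inducible factor that pairs with JUN proteins, had 8.18, 5.98 and 8.78 CPM at 0 h, 10.7, 12.4 and 12.4 CPM at 5 h, and 10.0, 9.70 and 10.2 CPM at 12 h. The groups did not overlap, and the 12 h libraries lay between the others. ATF3 was 1.53-fold higher at 5 h than at 0 h (log2 0.62 ± 0.18, edgeR adjusted p = 0.00725). That call was lost without 0 h replicate 2, its lowest library (log2 0.47, adjusted p = 0.0507). For ATF3 at 12 h against 0 h the log2 difference was 0.37 (95% interval -0.02 to 0.76, edgeR adjusted p = 0.102), and at 12 h against 5 h it was -0.25 (-0.62 to 0.12, edgeR adjusted p = 0.293).

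BATF and BATF3, near-relatives with different patterns here, completed the family. BATF, needed in mice for IL-17-producing helper T cells, measured 2.05, 1.94 and 2.07 CPM at 0 h, 1.5, 2.30 and 1.25 CPM at 5 h, and 0.976, 1.53 and 1.92 CPM at 12 h. The 5 h libraries spread to either side of the 0 h libraries. None of its comparisons passed the test, with a log2 difference of -0.25 (95% interval -1.02 to 0.53, edgeR adjusted p = 0.608) at 5 h against 0 h and -0.40 (-1.19 to 0.40, edgeR adjusted p = 0.403) at 12 h against 0 h. BATF3, known in mice for its part in the development of cross-presenting dendritic cells, measured 7.54, 7.03 and 7.56 CPM at 0 h, 13.5, 13.6 and 13.9 CPM at 5 h, and 10.7, 12.1 and 10.7 CPM at 12 h. Its groups were tight and did not overlap. BATF3 was 1.85-fold higher at 5 h than at 0 h (log2 0.89 ± 0.16, edgeR adjusted p = 1.17e-04) and 1.52-fold higher at 12 h than at 0 h (log2 0.61 ± 0.17, edgeR adjusted p = 0.00461). Its 12 h libraries differed from 5 h by log2 -0.28 (-0.61 to 0.04, edgeR adjusted p = 0.162).

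**Figure D2:**
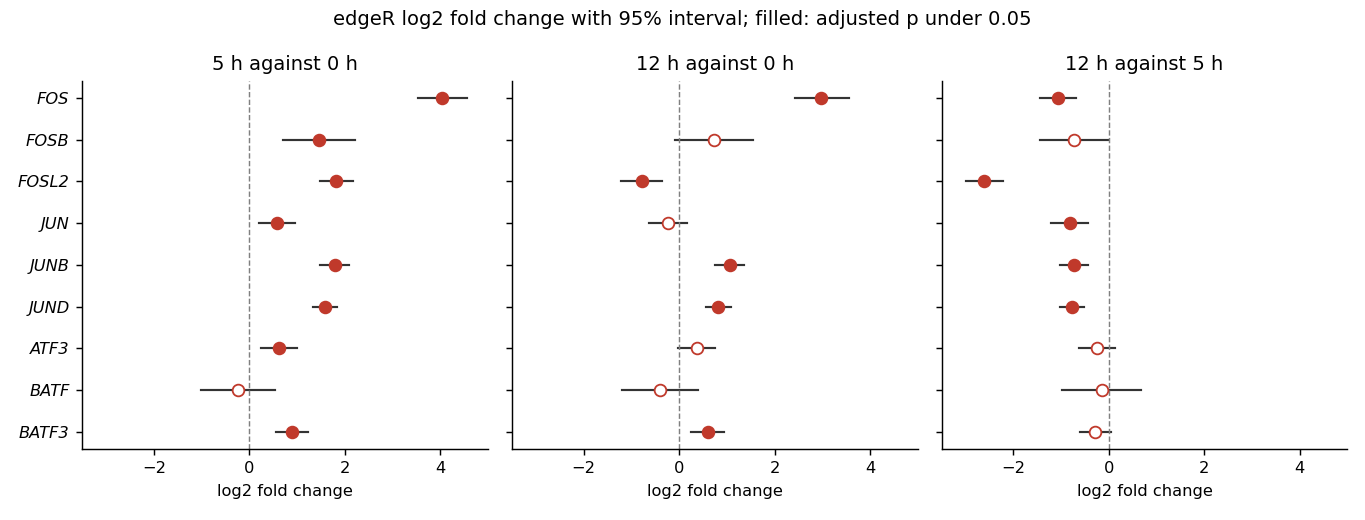
Log2 fold changes of the 9 AP-1 genes tested (x axis) in the 3 comparisons (panels), with genes down the y axis, points for the edgeR estimate, bars for the 95% interval and filled points for an adjusted p under 0.05. At 5 h against 0 h every filled point lies right of 0, and at 12 h against 5 h every filled point lies left of it, with FOSL2 at -2.60 the farthest.

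The members that moved together at 5 h were set beside their promoter sequences, from 250 bases before to 50 bases after the start site in the RefSeq promoter table (GRCh38.p14). An entry was found for 8 of the 10 members. ATF3 had 2 entries, an upstream one (chromosome 1, 212565157 to 212565456) and a downstream one (212614768 to 212615067), and the others had 1 each. Positions count from the start site as 0. The letters TGACGT on either strand, the core of the site bound by CREB and ATF dimers, were in the promoters of FOS, FOSB, FOSL2 and JUND, and in 7.98% of 35116 promoters. Within bases -90 to -21, limits that take in a site of each of these 4 promoters, 3.16% of all promoters held the core. No reason for these limits was given, so this share is a description and not a test. The longer palindrome TGACGTCA, which contains that core, was in the JUND promoter at bases -200 to -193 and in 1.85% of all promoters. The classical AP-1 site TGANTCA was in the FOSL2 promoter, as TGACTCA at bases 4 to 10, and in 7.71% of all promoters. TGACATCA, a variant bound by JUN and ATF2 dimers, was in the JUN promoter, the upstream ATF3 promoter and in 2.61% of all promoters. The sequences below show the CREB and ATF core and the JUN and ATF2 variant in their surroundings, in capitals. The AP-1 site of FOSL2 and the longer palindrome of JUND lie outside the stretches shown. JUNB is shown as a promoter of a gene with a 3.45-fold gain that has none of these sites. Each stretch lies outside annotated exons of GENCODE 29, except that of JUN, whose site falls in the 5′ UTR of the annotated transcript and is shown with 30 bases only.
FOS, chr14:75278704-75278773, plus strand: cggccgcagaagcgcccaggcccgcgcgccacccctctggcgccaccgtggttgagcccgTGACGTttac
FOSB, chr19:45467906-45467975, plus strand: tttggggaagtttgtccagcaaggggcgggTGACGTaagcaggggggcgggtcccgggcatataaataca
FOSL2, chr2:28392732-28392801, plus strand: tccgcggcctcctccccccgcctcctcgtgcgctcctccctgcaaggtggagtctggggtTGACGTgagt
JUND, chr19:18281643-18281712, minus strand: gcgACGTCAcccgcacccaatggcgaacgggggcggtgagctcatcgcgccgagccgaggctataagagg
JUNB, chr19:12791396-12791465, plus strand: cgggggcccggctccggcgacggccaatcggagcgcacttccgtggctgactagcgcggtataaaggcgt
JUN, chr1:58784096-58784125, minus strand: aggccttggggTGACATCAtgggctatttt
ATF3 upstream promoter, chr1:212565264-212565333, plus strand: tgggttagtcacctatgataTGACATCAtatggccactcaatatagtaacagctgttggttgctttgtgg

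The TGACGT core lay at bases -64 to -59 in the FOS promoter, -60 to -55 in FOSB, -66 to -61 in FOSL2 and -87 to -82 in JUND, where the printed strand reads ACGTCA. These 4 genes were among the 5 that rose at least 2-fold at 5 h. JUN and ATF3 were the called members with the smallest gains at 5 h. They had TGACATCA at bases -67 to -60 of the JUN promoter and -123 to -116 of the upstream ATF3 promoter. Whether genes with any of these motifs gained more or less than other genes was not tested. The box TATAAA was found in the promoters of FOS, FOSB and JUNB (11.5% of all promoters). It was also at bases -230 to -225 of the downstream ATF3 entry. That entry lies inside the annotated ATF3 gene, and whether it is a promoter was not tested. CCAAT was in those of JUN, JUNB and JUND and in the upstream ATF3 promoter (34.6%). No match in these windows was found for the CArG box bound by SRF, for an NF-kappaB site or for GCGNGGGCG, the site bound by EGR factors, which were in 1.29%, 11.3% and 9.43% of all promoters. A match is a run of letters, not a measured binding site, and sites outside the window, such as the upstream serum response element of FOS, were not searched.

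AU-rich elements in the 3′ UTR mark many short-lived mRNAs, FOS among them. In the longest annotated 3′ UTR of each gene (GENCODE 29), the pentamer ATTTA occurred 5 times in 806 bases of FOS, or 6.20 per kb. JUNB had 2 in 500 bases (4.00 per kb) and FOSL2 had 9 in 4864 bases (1.85 per kb), while BATF had none in 344 bases. The other members had 1.19 to 2.68 per kb, and the median over 11949 tested genes with a 3′ UTR was 1.66 per kb. The overlapping nonamer ATTTATTTA was found in FOS alone among the members, at bases 644 to 652 of its 3′ UTR, and in 7.67% of the tested genes. It is shown here in capitals within 29 bases of the UTR.
FOS 3′ UTR, chromosome 14: tgtgtttttaATTTATTTAttaagatgga

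Levels of different genes were compared after division by the merged exon length of the gene, as CPM per kb. JUND was the highest member in every group, at 39.2 CPM per kb at 0 h, 117 at 5 h and 69.1 at 12 h. JUNB was the next, at 12.7, 43.9 and 26.2 CPM per kb at 0, 5 and 12 h, and the libraries of JUND and JUNB did not overlap in any group. The order below them changed with time. At 0 h JUN (2.97), BATF3 (2.72), BATF (2.06), ATF3 (1.89) and FOSL2 (1.39 CPM per kb) came before FOS (0.308), FOSB (0.208) and FOSL1 (0.183), and the libraries of neighbours overlapped from JUN to BATF3, from BATF through FOSL2, and from FOS through FOSL1. At 5 h FOS (5.25), BATF3 (5.05), FOSL2 (4.87) and JUN (4.46 CPM per kb) overlapped one with the next, above ATF3 (2.93), BATF (1.72), FOSL1 (0.939) and FOSB (0.574). At 12 h BATF3 (4.12 CPM per kb) stood alone in the place after JUNB, above FOS (2.48), ATF3 (2.47), JUN (2.45) and BATF (1.51), which overlapped from neighbour to neighbour, and FOSL2 (0.787) had dropped to a place above FOSL1 (0.384) and FOSB (0.353). The place of ATF3 depends on the length used. Scaled by the longest transcript, ATF3 took 5.47% of the summed level of the 10 members at 0 h, ahead of BATF3 (4.74%) and JUN (4.48%), and at 12 h ATF3 (4.22%) and BATF3 (4.21%) were level.

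The summed level of the 10 members was 63.6 ± 4.44 CPM per kb at 0 h, 187 ± 26.1 at 5 h and 109.8 ± 17.1 at 12 h (SD, n = 3). JUN-class mRNA made up most of it, at 86.2% ± 1.08 at 0 h, 88.5% ± 1.29 at 5 h and 88.9% ± 1.31 at 12 h. The FOS class took 3.32% ± 0.90, 6.28% ± 0.76 and 3.71% ± 0.62 at 0, 5 and 12 h, highest at 5 h. Within it, FOS stood above FOSL2 by 12 h. The shares were 0.481% for FOS and 2.22% for FOSL2 at 0 h, 2.82% and 2.65% at 5 h, and 2.28% and 0.723% at 12 h. At 5 h the order differed between libraries, with FOSL2 above FOS in replicate 1 (3.32% against 3.14%). With the longest transcript as the length, the 5 h shares were 4.08% for FOS and 2.73% for FOSL2. The BATF class took 7.53% ± 0.30, 3.66% ± 0.54 and 5.15% ± 0.35, and ATF3 took 2.96% ± 0.43, 1.57% ± 0.10 and 2.29% ± 0.39, both lowest at 5 h. With the longest transcript as the length, the ATF3 share was 5.47%, 2.91% and 4.22%, again lowest at 5 h. JUND alone held 61.5%, 62.8% and 62.9% at the 3 times, while JUN held 4.66%, 2.38% and 2.21%. These shares are descriptions of mRNA, with no test, and say nothing of the dimers that formed.

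**Figure D3:**
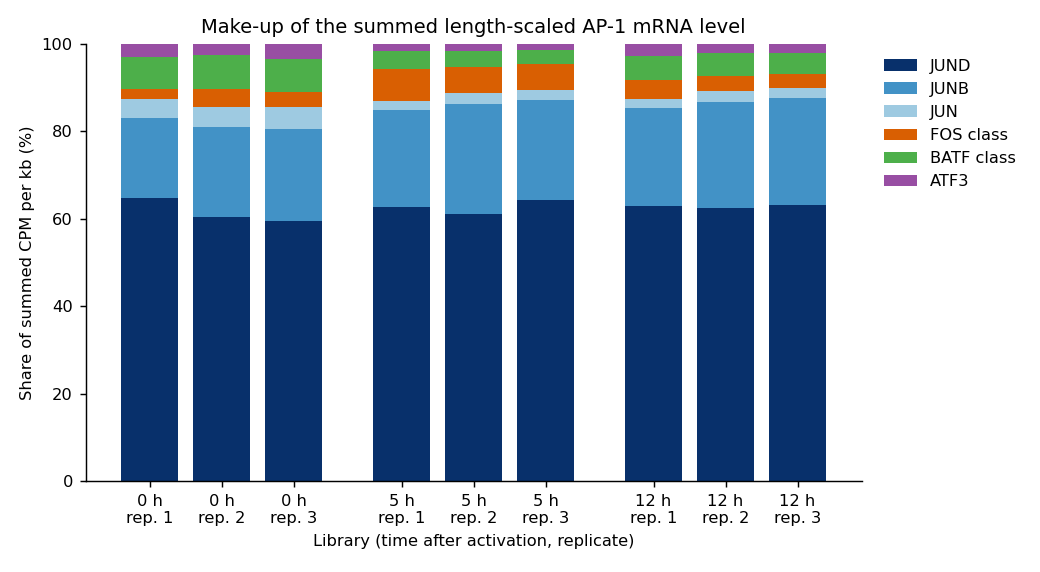
Stacked bars give the percent of the summed length-scaled AP-1 level (y axis, 0 to 100) held by JUND, JUNB, JUN, the FOS class, the BATF class and ATF3 in each of the 9 libraries (x axis). JUND takes 59.4% to 64.7% of every bar, and the FOS class is widest in the 5 h bars.

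Ratios of counts within a library do not depend on library size or its scaling. JUNB to JUN was 2.12, 2.35 and 2.16 at 0 h, 5.04, 4.90 and 5.25 at 5 h, and 5.85, 5.15 and 5.62 at 12 h, so every activated library had over 2 times the ratio of every 0 h library. JUND to JUN was 7.69, 7.03 and 6.21 at 0 h, 14.6, 12.3 and 15.1 at 5 h, and 16.7, 13.6 and 14.8 at 12 h, again with the activated libraries apart from 0 h. JUNB to JUND stayed between 0.276 and 0.400 in all 9 libraries. Its 5 h range overlapped both others, while the 12 h libraries (0.349 to 0.380) lay just above those of 0 h (0.276 to 0.348). FOS to FOSL2 was 0.161, 0.0575 and 0.114 at 0 h, 0.428, 0.465 and 0.573 at 5 h, and 1.43, 1.44 and 1.41 at 12 h, a step at each time with no overlap. BATF3 to BATF was 3.62 to 3.69 at 0 h, 5.94 to 11.1 at 5 h and 5.54 to 11 at 12 h. ATF3 to BATF3 lay between 0.789 and 1.16 in all libraries. Both genes of a ratio were counted in the same library. Each ratio shows unequal change and does not by itself show which gene moved.

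**Figure D4:**
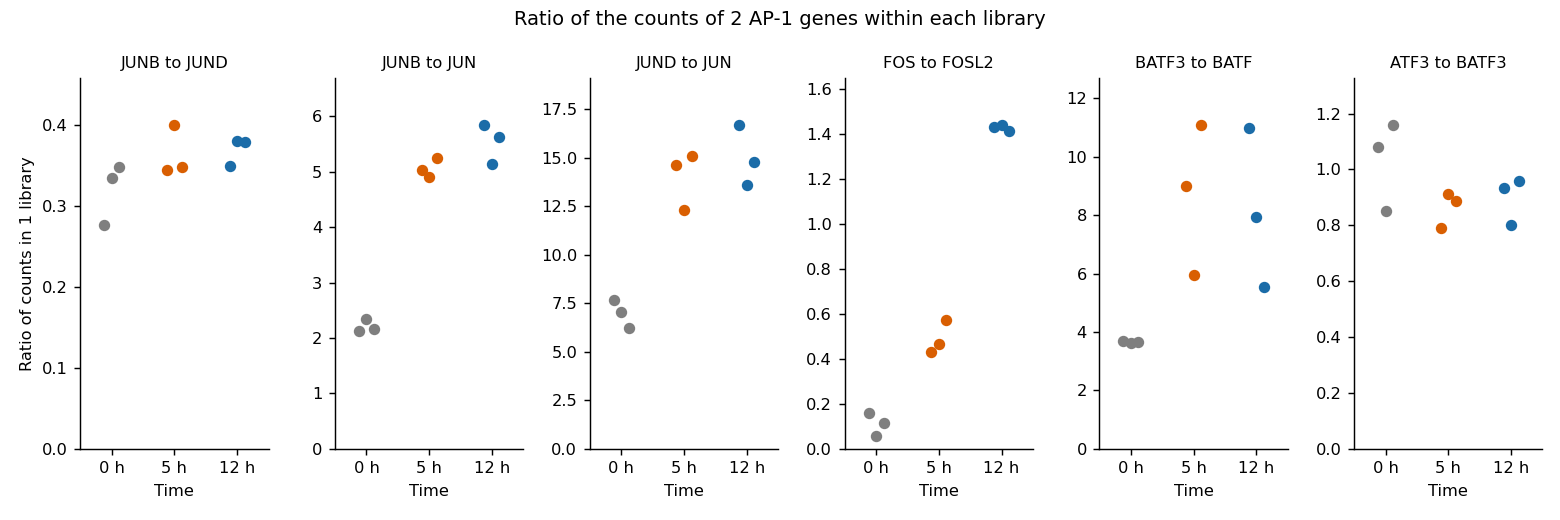
Each panel plots the ratio of the counts of 2 AP-1 genes in each library (y axis, from 0, a scale of its own per panel) against time (x axis: 0, 5 and 12 h), with 1 point per library. The FOS to FOSL2 ratio climbs from at most 0.161 at 0 h to at least 1.41 at 12 h, whereas the JUNB to JUND ratio stays between 0.276 and 0.400.

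Patterns were compared as the Euclidean distance between the log2 CPM of 2 genes over the 9 libraries, each centred on its own mean. The values were not scaled, so the distance reflects the size of the changes as well as their course. Within the family, JUNB and JUND were closest (0.43), then ATF3 and BATF3 (0.52), while FOS and BATF were farthest apart (5.68). The nearest genes that follow were sought among tested genes outside the family. The 3 nearest to FOS were ZFP36L1 (0.58), which encodes a protein that binds AU-rich mRNA elements, the repressor gene BACH2 (0.80) and the adaptor gene SH2D2A (0.85). ZFP36L1 averaged 40.4 CPM at 0 h, 651 at 5 h and 323 at 12 h. Nearest to FOSL2 were LTA, which encodes lymphotoxin alpha (1.04), KLF10 (1.29) and the endoplasmic reticulum chaperone gene HSPA5 (1.35). LTA averaged 5.34 CPM at 0 h, 11.3 at 5 h and 2.59 at 12 h and so, like FOSL2, ended below 0 h. JUND was nearest to the clock gene PER1 (0.33), GNA15 (0.36) and ZYX (0.52), and JUNB to the ribosome biogenesis gene PPAN (0.37), the immediate-early gene IER2 (0.52) and ZYX (0.52). The nearest to JUN were GAR1 (0.40) and UTP14A (0.47), both of ribosome biogenesis, and P2RY11 (0.48). For FOSB they were the clock gene CRY1 (0.57), the EGR co-repressor gene NAB1 (0.58) and GLIPR1 (0.60), and for BATF they were BOLA3, CEP72 and POLR2F (0.50 to 0.55). ZNF45 (0.32) and CBARP (0.33) were near to ATF3, and the kinase gene SIK3, DLGAP4 and the gene with identifier ENSG00000275464 were nearest to BATF3 (0.22 to 0.23). These lists describe likeness in 9 libraries and carry no test.

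Pairs of members share a neighbourhood in the genome. FOS and BATF lie 240194 bp apart on chromosome 14, with JDP2, the gene of a repressor of AP-1, between them. FOS rose at 5 h, whereas BATF did not pass the test, and JDP2 averaged 1.78 CPM at 0 h, 1.34 at 5 h and 1.67 at 12 h without passing in any comparison (edgeR adjusted p = 0.506 at 5 h against 0 h, 0.68 at 12 h against 0 h and 0.846 at 12 h against 5 h). ATF3 and BATF3 lie 65640 bp apart on chromosome 1 (212565334 to 212620777, plus strand, and 212686418 to 212699985, minus strand), and both rose at 5 h. GARIN4 lies between them and averaged 0.00, 0.045 and 0.122 CPM at 0, 5 and 12 h, too few counts to test.

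Counts of called genes in the lists that follow stand against a background of 24.9% of all genes tested higher and 24.8% lower at 5 h against 0 h, 26.3% and 24.8% at 12 h against 0 h, and 18.1% and 18% at 12 h against 5 h. Other basic leucine zipper genes share the fold of AP-1 proteins and in part dimerise with them. Of 32 on the list, 27 were tested: 11 were higher and 6 lower at 5 h against 0 h (median log2 0.15, against 0.00 for all genes), 10 were higher and 5 lower at 12 h against 0 h (median 0.19), and 5 were higher and 10 lower at 12 h against 5 h (median -0.22). CREB5, a JUN partner of the ATF2 type, averaged 0.353 ± 0.263 CPM at 0 h, 18.3 ± 2.49 at 5 h and 6.77 ± 0.32 at 12 h (log2 5.63 ± 0.32 at 5 h against 0 h, edgeR adjusted p = 6.17e-12). BACH2, a repressor that competes for AP-1 sites, averaged 51.3 ± 4.82, 773 ± 48.9 and 330.0 ± 18.5 CPM at the 3 times (log2 3.92 ± 0.10, edgeR adjusted p = 1.49e-17). CREM, whose short products repress CREB sites, was at 7.23 ± 0.89, 24.1 ± 0.96 and 12.1 ± 2.96 CPM (log2 1.73 ± 0.17), and the stress factor gene DDIT3 at 9.01 ± 1.08, 26.7 ± 3.29 and 19.4 ± 2.32 CPM (log2 1.57 ± 0.15). All 4 remained above 0 h at 12 h and below 5 h, with edgeR adjusted p between 8.79e-15 and 0.0178 in those comparisons.

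MAP kinase genes encode the kinases that carry the signal to AP-1. Of 36 tested among 37, 15 were higher and 7 lower at 5 h against 0 h (median log2 0.24), 16 and 5 at 12 h against 0 h (median 0.22), and 7 and 8 at 12 h against 5 h (median -0.07). MAP2K3 and MAP2K6, which encode the paired activators of p38 kinases, moved in opposite directions. MAP2K3 averaged 34.5 ± 0.89 CPM at 0 h, 284 ± 9.31 at 5 h and 68.6 ± 5.47 at 12 h (log2 3.04 ± 0.09 at 5 h against 0 h, edgeR adjusted p = 2.15e-16). MAP2K6 averaged 26.8 ± 5.00, 7.72 ± 0.23 and 17.1 ± 1.49 CPM (log2 -1.79 ± 0.16, edgeR adjusted p = 1.47e-08). RPS6KA2, which encodes an ERK-activated S6 kinase, fell to 1.21 ± 0.61 CPM at 5 h, against 6.65 ± 0.72 CPM at 0 h (log2 -2.47 ± 0.34, edgeR adjusted p = 4.25e-06). MAP3K8, which encodes a kinase that activates the ERK pathway, rose to 3.74 ± 0.49 CPM at 5 h, against 1.28 ± 0.72 CPM at 0 h (log2 1.57 ± 0.42, edgeR adjusted p = 0.00404). Its log2 difference at 12 h against 0 h was 0.46 (edgeR adjusted p = 0.439).

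**Figure D5:**
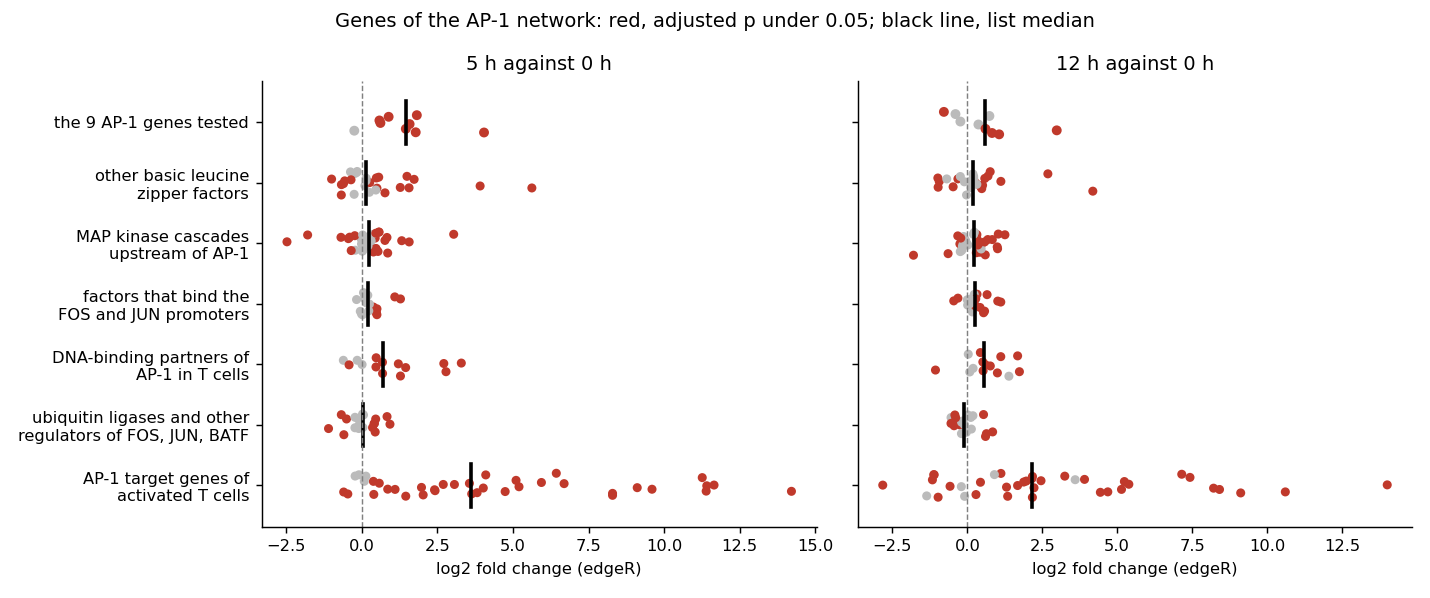
Each row is a gene list of the AP-1 network and each point a tested gene, placed by its edgeR log2 fold change (x axis) at 5 h against 0 h (left) and at 12 h against 0 h (right), red where the adjusted p was under 0.05, with a black line at the list median. The medians of the AP-1 genes (1.46) and of their targets (3.6) at 5 h stand right of the other lists. All lists were chosen with earlier results of these data known. The target list was drawn up knowing that several of its genes are induced here, so its median is no independent contrast. Fitted values of target genes with no count at 0 h depend on the prior count of the fit.

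Genes for factors that bind the FOS and JUN promoters included 7 that rose at 5 h. Of 19 tested among 20, these 7 were higher and 0 lower at 5 h against 0 h (median log2 0.20), 10 and 2 at 12 h against 0 h (median 0.24), and 3 and 2 at 12 h against 5 h (median -0.08). STAT3 averaged 146 ± 2.18 CPM at 0 h, 355 ± 16.3 at 5 h and 316 ± 11.2 at 12 h (log2 1.28 ± 0.08 at 5 h against 0 h, edgeR adjusted p = 6.07e-11). ELK1, which encodes the ERK-regulated partner of SRF, averaged 43.1 ± 5.20, 91.8 ± 3.64 and 86.3 ± 12.1 CPM (log2 1.09 ± 0.11, edgeR adjusted p = 7.76e-08). CREB1 and ELK3 each rose by log2 0.50 at 5 h (edgeR adjusted p = 1.21e-04 and 0.00257). SRF itself, named after its values were seen, averaged 97.5 ± 8.88 CPM at 5 h, against 88.3 ± 4.94 CPM at 0 h (edgeR adjusted p = 0.259).

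DNA-binding partners of AP-1 in T cells were mostly higher. All 14 were tested: 10 were higher and 1 lower at 5 h against 0 h (median log2 0.69), 9 and 1 at 12 h against 0 h (median 0.57), and 1 and 5 at 12 h against 5 h (median -0.16). IRF4 and IRF8, the partners of BATF proteins at composite sites, rose at 5 h. IRF8 averaged 6.31 ± 0.86 CPM at 0 h, 43.8 ± 3.17 at 5 h and 20.5 ± 1.95 at 12 h (log2 2.79 ± 0.14 at 5 h against 0 h, edgeR adjusted p = 1.46e-12). IRF4 averaged 0.207 ± 0.188, 2.32 ± 0.32 and 0.623 ± 0.097 CPM (log2 3.29 ± 0.57, edgeR adjusted p = 6.41e-05), and its 12 h level did not pass against 0 h (edgeR adjusted p = 0.119). NFATC1, the inducible NFAT gene, rose to 113 ± 5.57 CPM at 5 h, against 41.3 ± 5.08 CPM at 0 h (log2 1.45 ± 0.10, edgeR adjusted p = 1.94e-10). Its level at 12 h was 47.1 ± 2.18 CPM (edgeR adjusted p = 0.137 against 0 h). The Runt-domain factor gene RUNX3 rose to 132 ± 9.65 CPM at 5 h, against 20.3 ± 2.70 CPM at 0 h (log2 2.71 ± 0.12), while RUNX1, the 1 gene of the list that fell, was at 567 ± 11.8 CPM at 5 h, against 758 ± 53.4 CPM at 0 h (log2 -0.42 ± 0.08, edgeR adjusted p = 3.54e-04).

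Genes for ubiquitin ligases and other regulators of FOS, JUN and BATF proteins formed a list of 19. All were tested, with 7 higher and 4 lower at 5 h against 0 h (median log2 0.03), 4 and 5 at 12 h against 0 h (median -0.10), and 3 and 3 at 12 h against 5 h (median -0.04). MEN1, which encodes menin, a JUND-binding protein, fell to 77.8 ± 6.92 CPM at 5 h, against 124 ± 11.9 CPM at 0 h (log2 -0.67 ± 0.10, edgeR adjusted p = 1.69e-05). FBXW7, whose product targets phosphorylated JUN for degradation, rose to 84.4 ± 1.70 CPM at 5 h, against 44.2 ± 1.41 CPM at 0 h (log2 0.93 ± 0.09, edgeR adjusted p = 2.96e-08).

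Genes known as AP-1 targets in activated T cells had the largest median change of the lists. The list was drawn up knowing that several of its genes are induced in these data. Of 46, 38 were tested: 32 were higher and 2 lower (PLAUR and DUSP1) at 5 h against 0 h, with a median log2 of 3.6. At 12 h against 0 h, 27 were higher, 6 were lower and the median was 2.16. In 5 of these genes no read was counted at 0 h, and the median was 2.06 when each took its lower bound. At 12 h against 5 h, 26 were lower and 2 (GZMA and MT2A) higher, with a median of -1.06. IL2RA, the alpha chain of the interleukin-2 receptor, had no count at 0 h, 339 ± 7.60 CPM at 5 h and 294 ± 30.7 CPM at 12 h, at least 2560-fold and at least 2270-fold above the 0 h floor of 3 counts over the group. The cytokine genes IL3 and CSF2, also without a 0 h count, were at least 366-fold and 362-fold higher at 5 h than at 0 h. Those bounds at 12 h against 0 h were 39.7-fold and 23.1-fold. The chemokine gene XCL1, whose reads may be split with the near-identical XCL2, had a ratio of 3660 at 5 h against 0 h (95% counting interval 1250 to 17800) and 1820 at 12 h against 0 h (624 to 8850), from 3 counts at 0 h. Like FOS and FOSL2, IL3 and CSF2 were lower at 12 h than at 5 h (log2 -3.20 ± 0.18 and -3.96 ± 0.17), whereas IL2RA did not pass in that comparison (log2 -0.20 ± 0.09, edgeR adjusted p = 0.0923).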

How the data were processed

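The 9 mRNA libraries were prepared from total RNA (RealSeq kit, per the labels' protocols). The authors deposited whole-number counts by Ensembl gene. The submitters' processing notes name cutadapt, RSEM, DESeq2 and the build GRCh38.p13, with no roles, so these counts may be rounded estimates. The aligner, the annotation and the strand setting are not stated in those notes. The deposited log2 values equal log2 of the count over 1 factor per library, plus 1, for the 12692 genes with a count in all 9 libraries, and served only as an alternative.

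Counts were tested with edgeR 4.0.16 (R 4.3.3): 1 quasi-likelihood fit of all 9 libraries, TMM scaling, the filterByExpr filter (12036 genes left), Benjamini-Hochberg adjustment over all of them and a threshold of 0.05. Means are ± SD and log2 fold changes ± SE. Alternatives were DESeq2 1.42.0, other scalings and filters, limma 3.58.1 on the log2 values, a replicate block and leaving out each library. Chi-square per degree of freedom between replicates was 2.87 to 8.92, so each library counted as 1 replicate. Bounds and counting intervals cover counting error only.

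The members, lists and tests were chosen with earlier results of these data known. Named genes are the 10 members. Per list, up to 4 called genes with the largest log2 fold change at 5 h against 0 h are named. Also named are the 3 nearest genes outside the family per member, and neighbours or exceptions chosen after their values were seen. Some genes that this rule names are not reported here. Of the 19569 genes, 19543 matched a symbol. Coordinates are 1-based, from GENCODE 29 (GRCh38), and promoter sequences are from RefSeq (GRCh38.p14).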

Additional observations from a re-analysis of the deposited data

Results flagged for a closer look

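For 5 members the change since 0 h differed between the activated groups, by the direct edgeR test of 12 h against 5 h (n = 3 per group). In that comparison 36.1% of all genes tested were called, 18% of all genes tested as lower. The log2 fold changes were -1.06 for FOS, -2.60 for FOSL2, -0.82 for JUN, -0.72 for JUNB and -0.76 for JUND. In each case all 3 libraries at 12 h lay below all 3 at 5 h. The share of all genes separated in this way was not counted. FOSL2 was the 1 of these 5 members called in opposite directions against 0 h, higher at 5 h and lower at 12 h. JUN also had estimates of opposite sign (log2 0.59 at 5 h and -0.23 at 12 h), but that at 12 h did not pass (edgeR adjusted p = 0.333).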

How the results depend on the processing

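Of 189 member values under another test, scaling, filter or choice of libraries, 186 kept their direction and their side of the threshold, and so did 240 of 243 with 1 library left out. The 3 others of the first kind came from limma on the deposited log2 values, where FOSB at 12 h against 0 h (log2 0.67, adjusted p = 0.0188), FOSB at 12 h against 5 h (-0.69, adjusted p = 0.0276) and BATF3 at 12 h against 5 h (-0.29, adjusted p = 0.0327) passed, and the cause was not tested. With 1 library left out, ATF3 at 5 h against 0 h ranged from 0.47 to 0.73, JUN at 5 h against 0 h from 0.46 to 0.72 and BATF at 12 h against 5 h from -0.35 to 0.15. BATF was 0.15 without 5 h replicate 2 (adjusted p = 0.839). Library totals alone moved the median log2 fold change of all genes by -0.12 at 5 h and -0.11 at 12 h against 0 h. The calls of the members stood, with JUN at 0.47 and ATF3 at 0.50 at 5 h, but among all genes 2200 were then higher and 3899 lower at 5 h, against 3001 and 2984 with TMM, and 2485 higher and 3899 lower at 12 h against 0 h, against 3160 and 2985.

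Deviations from the group means of same-numbered libraries of different groups had correlations of -0.127 to 0.105, over 0.1 in 1 of 9 pairs. Those of libraries with other numbers were -0.142 to 0.152, over 0.1 in 6 of 18 pairs. What the numbers mark is not stated, and such correlations cannot tell whether same-numbered libraries share a culture or batch. With the replicate block, 2989 genes were higher and 2992 lower at 5 h against 0 h, and no call of a member changed. With the longest transcript in place of merged exons, the share of the FOS class was 7.79% at 5 h and 4.90% at 12 h, of the JUN class 82.9%, 85.4% and 85.4% at 0, 5 and 12 h, of ATF3 5.47%, 2.91% and 4.22%, and of the BATF class 7.86% at 0 h and 5.50% at 12 h. Depth limits FOSL1, FOSB and BATF, which averaged at most 3.19 CPM in any group. It also limits FOS at 0 h, the baseline of its gains, with 23 counts over the group.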
